A study of Homo sapiens with 30 samples.

Results

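HEXIM1, LARP7, CDK9, CCNT1, CCNT2, NELFA, NELFB, NELFCD, NELFE and SUPT5H encode proteins that hold RNA polymerase II near the start of a gene or release it from there. The 10 genes were taken by name from a count matrix of 58780 genes and followed in all 15 groups of a PRO-seq study. All 10 passed the filter on low counts, as did 22919 genes in all. PRO-seq lets engaged polymerases extend their transcripts with labelled nucleotides in permeabilised cells, so that its counts follow ongoing transcription and not stored mRNA. The cells were A549, an established human lung adenocarcinoma line. Dexamethasone (Dex), a synthetic glucocorticoid, was given at 100 nM for 15 min or 3 h. GSK591, which blocks PRMT5, and MS023, which blocks the type I enzymes that methylate arginine, were given at 1 µM. Every group contained 0.01% DMSO. One untreated group, labelled as 15 min, served for all times. The 14 treated groups were Dex for 15 min, Dex for 3 h, Dex together with GSK591 for 3 h, Dex together with MS023 for 3 h, GSK591 or MS023 without Dex (2, 4 or 7 days), and a 7-day course of GSK591 or MS023 that ended with Dex (15 min or 3 h). Each group had 2 libraries. The labels do not say whether these came from separate cultures, so p-values measure the spread between these libraries, which may be technical.

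Soon after initiation, RNA polymerase II stops a short way into the gene. The pause is held by DSIF, of which SUPT5H is the large subunit, and by NELF, a complex of the products of NELFA, NELFB, NELFCD and NELFE. The kinase P-TEFb, made of CDK9 and a cyclin T (CCNT1 or CCNT2), phosphorylates DSIF, NELF and the polymerase, NELF leaves, and elongation proceeds. A large pool of P-TEFb is kept inactive in a ribonucleoprotein built on the 7SK RNA, where LARP7 binds and protects the RNA and HEXIM1 inhibits CDK9. HEXIM1 was first described as a gene induced by hexamethylene bisacetamide, and its transcription is known to respond when P-TEFb is freed from 7SK.

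Total counts per library ran from 8441211 to 13069598, with a median of 10141639.5. Mitochondrial genes took 58.7% to 78.7% of them, which left 1886443 to 3482686 counts to nuclear genes outside mitochondrial and ribosomal RNA. The mitochondrial share was 73.4% to 76.0% in untreated libraries and 58.7% to 59.6% after 7 days of MS023, and leaving mitochondrial and ribosomal RNA genes out of the fit kept 269 of 270 gene-by-comparison values on the same side of the threshold, all but 1 for CCNT2. The libraries of Dex with MS023 stood apart from each other, with a correlation of 0.909 across 11069 genes, against 0.951 to 0.980 in the other 14 groups. All 8 A549 markers examined were counted in every library. Of 6 markers of other cells, PTPRC (leukocytes) reached at most 5 counts, PECAM1 (endothelium) at most 15 and ALB (hepatocytes) at most 9. The fibroblast collagen genes were COL1A1, with 22 to 105 counts and present in every library, and COL1A2, with 0 to 30. SFTPC, a mark of mature alveolar type 2 cells, lay between 0.556 and 4.41 CPM, the counts scaled to library size.

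Per kilobase of exons, HEXIM1 had the highest level of the 10 genes, with a median of 30.2 CPM per kilobase over the 30 libraries (lowest 19.7, highest 43.3). The median was 8.28 for CDK9, 7.61 for NELFB, 5.87 for SUPT5H, 4.13 for NELFA, 2.39 for NELFCD, 1.94 for NELFE, 1.82 for CCNT1, 1.64 for CCNT2 and 1.30 for LARP7. HEXIM1 did not overlap any of the other genes, whose highest value on this scale was 10.9, for CDK9. Neighbours in the order did overlap, such as NELFE (1.43 to 2.82), CCNT1 (1.11 to 2.09) and CCNT2 (1.19 to 2.27). Within NELF, NELFB stood above NELFA, NELFCD and NELFE in every library on this scale, since its lowest value of 5.22 lay above their highest, 4.98 for NELFA. Within P-TEFb, CDK9, the kinase, had levels of at least 6.73 and both cyclins at most 2.27. The files do not say which features were counted. Divided by the length of the whole gene instead, the median for HEXIM1, which has no intron, stayed at 30.2, and that of CDK9 was 4.86, while the other 8 genes lay between 0.258 (LARP7) and 1.24 (SUPT5H).

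**Figure D1:**
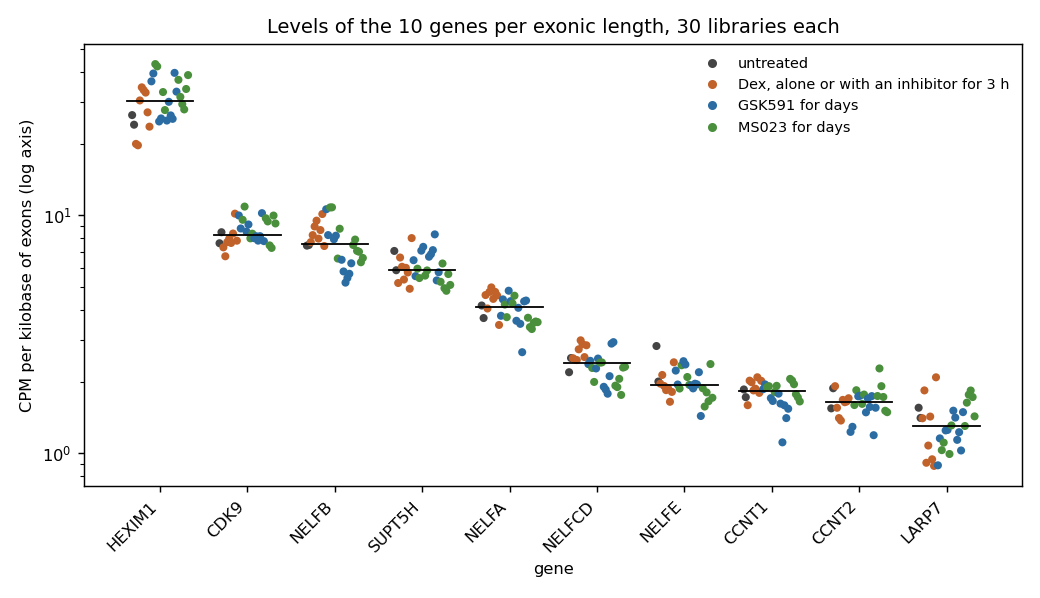
Level of each of the 10 genes in each of the 30 libraries, as TMM-scaled CPM per kilobase of exons on a log axis, ordered by median (black bar) and coloured by treatment. HEXIM1 (19.7 to 43.3) lies above all the others, and LARP7 has the lowest median (1.30).

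HEXIM1 is a gene of 1 exon and 3600 bases at chr17:45148502-45152101 (GRCh38, plus strand, GENCODE 29). The RefSeq table for GRCh38.p14 held promoter windows for all 10 genes, 13 windows in all, each from 250 bases before to 50 after a transcription start. The part of a window that lies before both the RefSeq and the GENCODE start of the gene was at least 200 bases long for HEXIM1 (chr17:45148225-45148474, plus strand) and NELFCD (chr20:58981006-58981207, plus strand), and for these it is shown. The HEXIM1 stretch overlaps the first exon of a divergent lincRNA gene, AC142472.1, which starts at position 45148470 on the minus strand. Capitals mark CCAAT, the GC box GGGCGG and TATAAA, searched on both strands, so that a match on the minus strand reads ATTGG or CCGCCC.
HEXIM1: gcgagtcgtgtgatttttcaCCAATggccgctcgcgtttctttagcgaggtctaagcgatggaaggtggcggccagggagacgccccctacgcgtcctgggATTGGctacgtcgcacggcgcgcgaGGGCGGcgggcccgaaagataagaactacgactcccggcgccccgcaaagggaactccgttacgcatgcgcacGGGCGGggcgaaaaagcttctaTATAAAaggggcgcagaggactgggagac
NELFCD: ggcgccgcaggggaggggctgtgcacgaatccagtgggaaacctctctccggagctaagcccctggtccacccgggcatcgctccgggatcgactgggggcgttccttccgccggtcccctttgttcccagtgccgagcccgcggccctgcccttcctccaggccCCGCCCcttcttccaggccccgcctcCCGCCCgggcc
HEXIM1 held TATAAA at an offset of -29 from the start, and no other of the 10 genes held it. TATAAA was present in 11.5% of the 35116 windows in the table. CCAAT was in windows of HEXIM1, LARP7, CCNT1 and CCNT2 (34.6% of all windows), and GGGCGG in those of 9 genes, all but NELFA (44.95% of all windows). The spaced glucocorticoid receptor core ACANNNTGT was in none of the 13 windows (5.37% of all windows), which says only that these letters are not in this stretch.

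HEXIM1 was the gene of the set that was called most often. It was higher than in untreated cells in 7 of 14 comparisons at an adjusted p below 0.05 (edgeR quasi-likelihood test, Benjamini-Hochberg over 22919 genes), and lower in none. Of all genes tested, whatever their depth, 7.97% were called in at least 7 of these comparisons. HEXIM1 also had the highest median count of the set (1036), and small changes are called more easily at such depth. Among 188 genes of like level, its spread over the group means lay at percentile 39.7, below the middle. The number of calls therefore does not show that HEXIM1 varied more than genes of its level. The other 9 genes together were called in 2 comparisons with untreated cells, both times NELFB. In all, 9 of 140 gene-by-comparison pairs were called, 8 higher and 1 lower, where the share called among all genes ran from 1.26% to 26.8% by comparison. The 14 comparisons share the untreated libraries, so they are not independent of each other. In libraries of many cells, a change in some cells and a change in every cell cannot be told apart.

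**Figure D2:**
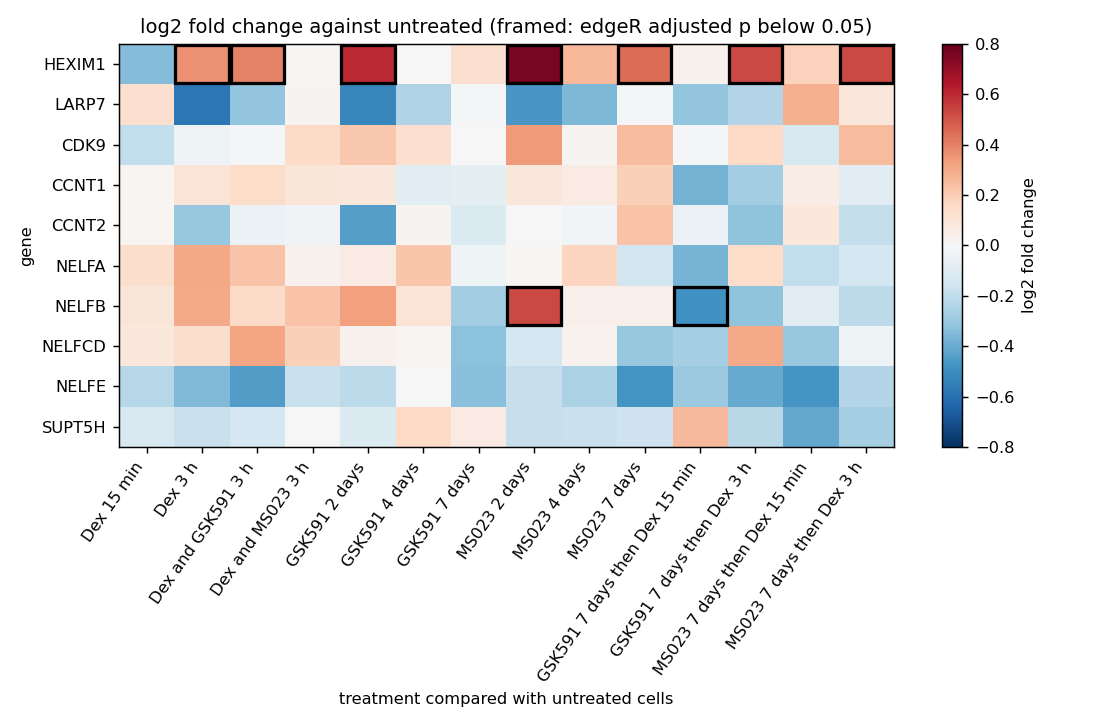
log2 fold change of each gene (rows) in each treatment against untreated cells (columns), from the edgeR fit, with red higher and blue lower. Black frames mark adjusted p below 0.05, found 7 times in the HEXIM1 row and 2 times in the NELFB row.

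HEXIM1 had 95.1 and 86.6 CPM in the untreated libraries. After Dex for 15 min it had 72.0 and 71.0 CPM, the lowest level of any group. Both of these libraries lay below both untreated ones, but the log2 fold change of -0.35 (SE 0.11) did not pass the test across genes (edgeR adjusted p = 0.163). With total-count scaling it was -0.02, beside a median of 0.31 over all genes. At that time 0 of the 10 genes were called by edgeR or by DESeq2, against 1.26% of all genes called by edgeR. Of the 10 genes, 1 had an unadjusted p below 0.05 in edgeR.

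After Dex for 3 h HEXIM1 had 109.6 and 124 CPM, above both untreated libraries, a 1.29-fold higher level (log2 0.36, SE 0.11, edgeR adjusted p = 0.0240). It was 1 of 10 genes called, against 10.5% of all genes. This call was not stable. DESeq2 gave the same size with an adjusted p of 0.0567, and scaling by total counts gave 0.123. The edgeR adjusted p was 0.0519 without untreated replicate 1 (log2 0.43), 0.228 without untreated replicate 2 (0.30) and 0.278 without Dex 3 h replicate 2 (0.27). The direct comparison of 3 h with 15 min of Dex, which uses no untreated library and was added after the data had been seen, gave a larger difference. HEXIM1 was 1.64-fold higher at 3 h (log2 0.71, SE 0.11, edgeR adjusted p = 7.45e-06) and was the 1 gene of 10 called, against 10.8% of all genes. It passed without each library in turn (log2 0.62 to 0.80), though not with total-count scaling (log2 0.57, adjusted p = 0.124).

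With GSK591 added to Dex for 3 h HEXIM1 had 121 and 118 CPM, 1.32-fold above untreated (log2 0.40, SE 0.11, edgeR adjusted p = 0.0111), and was again 1 of 10 genes called (11.9% of all genes). Leaving out untreated replicate 2, or either library of Dex with GSK591, raised the edgeR adjusted p to 0.159, 0.0814 and 0.0556 (log2 0.33, 0.38 and 0.41). With total-count scaling the change was 0.68, beside a median of 0.25 over all genes. With MS023 added to Dex it had 97.7 and 85.0 CPM, which overlapped the untreated libraries (log2 0.01, SE 0.11, edgeR adjusted p = 0.984), and 0 of 10 genes were called by edgeR or DESeq2, with 0 at an unadjusted p below 0.05 (12.0% of all genes called).

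Against Dex alone, neither added inhibitor gave a call among the 10 genes in edgeR or DESeq2, with 3 of 20 pairs at an unadjusted p below 0.05. The shares of all genes called by edgeR, at an adjusted p below 0.05, were 0% for GSK591 and 0.196% for MS023. The HEXIM1 difference was 0.03 for GSK591 (95% interval -0.19 to 0.25) and -0.36 for MS023 (-0.58 to -0.13, edgeR adjusted p = 0.130). The MS023 comparison rests on the group whose libraries stood apart. Without Dex with MS023 replicate 1, that group rests on 1 library. The log2 differences from Dex alone were then -0.46 for HEXIM1, -0.49 for NELFA, 1.07 for LARP7 and 0.49 for SUPT5H.

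**Figure D3:**
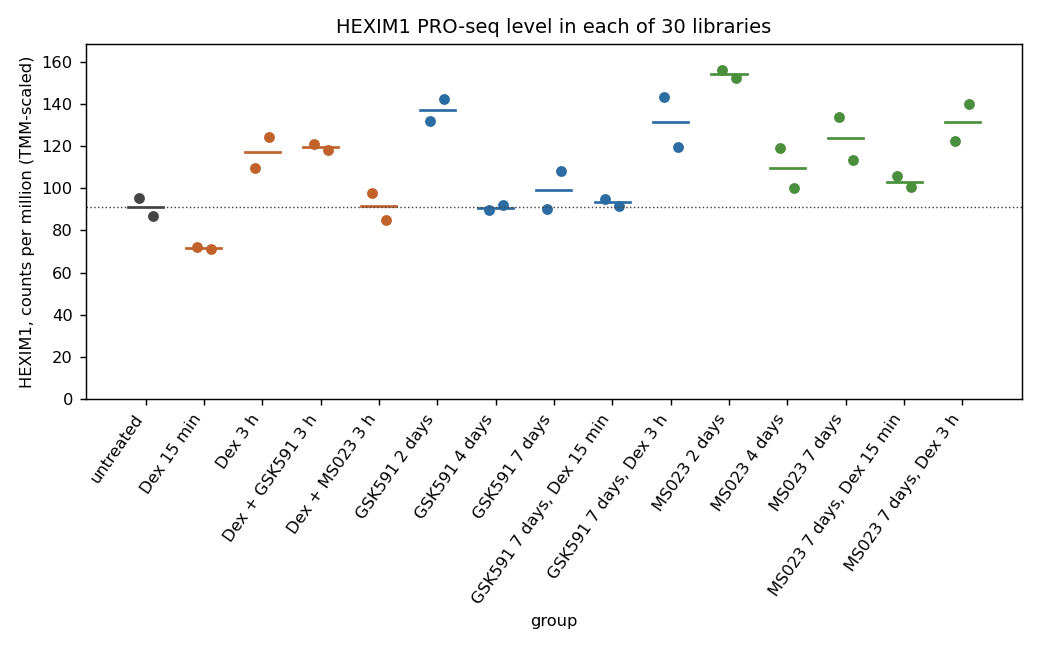
HEXIM1 in each of the 30 libraries, as TMM-scaled CPM, by group (points are libraries, bars group means, the dotted line the untreated mean). The 2 libraries of MS023 for 2 days are highest (156 and 152), and those of Dex for 15 min are lowest (72.0 and 71.0).

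HEXIM1 was higher than in untreated cells after 2 days of either inhibitor alone. No untreated group was kept for 2 days, so time in culture cannot be told apart from the inhibitors. After 2 days of MS023 it had 156 and 152 CPM, 1.70-fold above untreated (log2 0.76, SE 0.11, edgeR adjusted p = 2.11e-06), the highest level of any group. After 2 days of GSK591 it had 132 and 142 CPM, 1.51-fold above untreated (log2 0.59, SE 0.11, edgeR adjusted p = 4.99e-04). Both groups lay clear of the untreated libraries, and both calls held under every alternative run and without each library in turn. With total-count scaling the log2 change was 1.44 for MS023 and 0.89 for GSK591, where the median of all genes was at 0.68 and 0.29. HEXIM1 was the 1 gene of 10 called with GSK591 at 2 days (5.64% of all genes), and with MS023 it was called together with NELFB, 2 of 10 genes (10.4% of all genes).

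HEXIM1 was lower at 4 days than at 2 days with either inhibitor. It had 89.4 and 92.1 CPM after 4 days of GSK591, within the untreated range (log2 -0.00, SE 0.11, edgeR adjusted p = 0.994), and 119 and 99.8 CPM after 4 days of MS023 (log2 0.27, SE 0.11, edgeR adjusted p = 0.0981). Both MS023 libraries still lay above both untreated ones. With total-count scaling that difference was called (log2 1.02, edgeR adjusted p = 8.93e-05), beside a median of 0.74 over all genes, of which 11285 of 22919 were called. The fall from 2 to 4 days, compared directly in a test added after the data had been seen, was -0.60 for GSK591 (SE 0.11, edgeR adjusted p = 4.89e-04) and -0.49 for MS023 (SE 0.11, edgeR adjusted p = 0.00357). HEXIM1 was the 1 gene of 10 called for GSK591 (3.39% of all genes) and 1 of 2 called for MS023 (4.91%), the other being NELFB. With total-count scaling neither HEXIM1 fall passed (log2 -0.47, adjusted p = 0.443, and -0.42, 0.525). The MS023 fall also missed the threshold without MS023 2 days replicate 1 (log2 -0.48, edgeR adjusted p = 0.0593) and without MS023 4 days replicate 2 (-0.37, 0.157).

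At 7 days HEXIM1 had 90.2 and 108 CPM with GSK591 (log2 0.13, SE 0.11, edgeR adjusted p = 0.525) and 134 and 113 CPM with MS023 (log2 0.44, SE 0.11, edgeR adjusted p = 0.00375). The MS023 libraries lay above both untreated ones and the GSK591 libraries overlapped them. With total-count scaling the MS023 change was 1.47, beside a median of 1.02 over all genes. The MS023 call was lost without untreated replicate 2 (log2 0.38, edgeR adjusted p = 0.0858) or MS023 7 days replicate 1 (0.32, 0.140). Between 4 and 7 days, 0 of 20 gene pairs were called by edgeR for either inhibitor, or by DESeq2 (8.29% of all genes called by edgeR for GSK591, 9.04% for MS023). Of the 20 pairs, 4 had an unadjusted p below 0.05 in edgeR. With those groups fitted alone, NELFB was lower at 7 than at 4 days of GSK591 (log2 -0.38, edgeR adjusted p = 0.0451) and NELFA was lower with MS023 (-0.31, 0.0384). With total-count scaling NELFA (-0.71), NELFB (-0.82) and NELFCD (-0.79) were lower with GSK591, at an edgeR adjusted p of 0.0173, 0.00976 and 0.0243. With that scaling the median of all genes also fell, from 0.42 above untreated at 4 days of GSK591 to -0.03 at 7 days. The share of all genes called between times is not given for either setting. None of the 10 genes was called by edgeR or DESeq2 with GSK591 at 4 days (0 at an unadjusted p below 0.05, 17.2% of all genes called), GSK591 at 7 days (1, 13.2%) or MS023 at 4 days (1, 14.2%), and HEXIM1 was the 1 gene called with MS023 at 7 days (13.6%).

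In the direct comparison of GSK591 with MS023 at the same dose and time, HEXIM1 was lower with GSK591 by 0.17 at 2 days, 0.27 at 4 days and 0.32 at 7 days on the log2 scale. The 95% intervals were -0.39 to 0.05, -0.49 to -0.05 and -0.54 to -0.10, and none passed the test (edgeR adjusted p = 0.541, 0.158 and 0.0571). The libraries with GSK591 lay below those with MS023 at each time. Of 30 gene-by-time pairs, 0 were called by edgeR or DESeq2, where edgeR called 2.69%, 6.03% and 9.38% of all genes at 2, 4 and 7 days. At an unadjusted p below 0.05 in edgeR there were 6 pairs, a level for which no share of all genes is given. With total-count scaling the 7-day difference in HEXIM1 was -1.38 (edgeR adjusted p = 2.45e-07), beside a shift of -1.07 in the median of all genes. It also passed when the groups were fitted alone (log2 -0.30, adjusted p = 0.0301), when no filter on low counts was used (-0.37, 0.0234), without both libraries of Dex with MS023 (-0.32, 0.0313), without GSK591 7 days replicate 2 (-0.45, 0.0396) and without MS023 7 days replicate 2 (-0.43, 0.0430).

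When 7 days of inhibitor were followed by Dex for 3 h, HEXIM1 was again above untreated. It had 143 and 119 CPM after GSK591 then Dex (log2 0.53, SE 0.11, edgeR adjusted p = 2.13e-04) and 122 and 140.1 CPM after MS023 then Dex (log2 0.53, SE 0.11, edgeR adjusted p = 2.48e-04). Both are 1.44-fold rises with TMM scaling, and both calls held under every alternative and without each library. Their sizes did not: with total-count scaling the log2 change was 0.74 after GSK591 then Dex and 1.55 after MS023 then Dex, where the median of all genes was at 0.18 and 1.00. HEXIM1 was the only 1 of the 10 genes called in either comparison, against 26.8% of all genes with GSK591 and 21.9% with MS023. At 15 min of Dex it had 94.8 and 91.7 CPM after GSK591 (log2 0.04, edgeR adjusted p = 0.874) and 105.7 and 100.5 CPM after MS023 (log2 0.18, edgeR adjusted p = 0.273). With MS023 then Dex for 15 min, 0 of 10 genes were called by edgeR or DESeq2 (3 at an unadjusted p below 0.05, 17.2% of all genes called).

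The response to Dex was also measured against the same inhibitor without Dex. After GSK591, 3 h of Dex raised HEXIM1 from 90.2 and 108 to 143 and 119 CPM (log2 0.41, SE 0.11, edgeR adjusted p = 0.0107). This was lost without GSK591 7 days replicate 1 (log2 0.28, edgeR adjusted p = 0.279) or replicate 1 of GSK591 then Dex 3 h (0.27, 0.256). After MS023 the change at 3 h was 0.09 (95% interval -0.13 to 0.30, edgeR adjusted p = 0.711), from a starting level already above untreated. The difference between these responses and that of cells without inhibitor, tested as an interaction, was 0.04 for GSK591 (95% interval -0.27 to 0.36) and -0.28 for MS023 (-0.59 to 0.03), with edgeR adjusted p of 0.975 and 0.626. None of 40 interaction terms for the 10 genes passed in edgeR or DESeq2, and 3 had an unadjusted p below 0.05. Among all genes 0.223% passed at an edgeR adjusted p below 0.05 at 3 h, and 0.00436% at 15 min, with either inhibitor.

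The rise of HEXIM1 from 15 min to 3 h of Dex was also found after both inhibitors, in tests added after the data had been seen. It was 0.49 after GSK591 (SE 0.11, edgeR adjusted p = 0.00124) and 0.35 after MS023 (SE 0.11, edgeR adjusted p = 0.0244), and the 3 h libraries lay above the 15 min libraries each time. After GSK591, 4 of the 10 genes were called, 3 higher and 1 lower (14.2% of all genes). After MS023, 2 were called, both higher (12.9% of all genes). The GSK591 result fell to 0.36 without replicate 1 of GSK591 then Dex 3 h (edgeR adjusted p = 0.0838). The MS023 result missed the threshold in DESeq2 (adjusted p = 0.0771), with total-count scaling (0.192) and without replicate 1 or 2 of MS023 then Dex 15 min (log2 0.38 and 0.31, edgeR adjusted p = 0.0799 and 0.174) or replicate 2 of MS023 then Dex 3 h (0.24, 0.296).

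An antisense gene, AC138150.1, covers 14.4% of the HEXIM1 exon on the other strand, and the sources used here do not say whether strand was used in counting. It had 8 to 47 counts per library, against 694 to 1898 for HEXIM1, and was not called in any of the 14 comparisons with untreated cells. The divergent lincRNA gene AC142472.1 was higher after 4 days of GSK591 (log2 0.44, edgeR adjusted p = 0.00598), 7 days of GSK591 (0.46, 0.00518) and GSK591 then Dex for 15 min (0.41, 0.0114), groups in which HEXIM1 was not called, and lower after Dex with MS023 (-0.43, 0.0135). HEXIM2, the paralog that also inhibits P-TEFb within the 7SK particle, lies downstream on the same strand (chr17:45160700-45170040). It was higher after Dex with GSK591 (log2 0.55, SE 0.16, edgeR adjusted p = 0.0207), after Dex with MS023 (0.57, SE 0.16, 0.0170) and after 2 days of MS023 (0.53, SE 0.16, 0.0295), and was called in no other comparison with untreated cells. The RN7SK entry taken here, the 1 typed as small nuclear RNA, was at 0 counts in all 30 libraries. Any other entry for this RNA was not examined, so no value for the RNA of the particle is given.

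LARP7, the stabilising protein of the 7SK particle, was thinly counted, with 27 to 96 counts per library. It had 6.34 and 5.74 CPM in untreated cells, 5.73 and 7.50 after Dex for 15 min and 3.72 and 4.40 after Dex for 3 h. Both 3 h libraries lay below the untreated and the 15 min libraries. The change was -0.58 against untreated (SE 0.28, edgeR adjusted p = 0.210) and -0.71 against 15 min (SE 0.28, edgeR adjusted p = 0.0915), so neither passed. The second passed when both libraries of Dex with MS023 were left out of the fit (-0.71, edgeR adjusted p = 0.0430). In the latter group its own libraries gave 3.61 and 8.51 CPM, the lowest and the highest values of the gene.

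CDK9, the P-TEFb kinase, was at 22.9 and 25.5 CPM in untreated cells. It was at 28.7 and 32.7 after 2 days of MS023, its highest group, above both untreated libraries (log2 0.34, SE 0.13, edgeR adjusted p = 0.0761). That difference passed when only those groups were fitted (0.34, adjusted p = 0.0270) and without both libraries of Dex with MS023 (0.34, 0.0449). After 7 days of MS023 CDK9 was at 29.2 and 28.3 CPM, at 22.4 and 21.9 after a further 15 min of Dex, and at 29.95 and 27.8 after 3 h. The 15 min libraries thus lay below those before and after. The rise from 15 min to 3 h was 0.38 (SE 0.12, edgeR adjusted p = 0.0330), and CDK9 was the second gene called there beside HEXIM1. It was lost in DESeq2 (adjusted p = 0.125), with total-count scaling (0.185) and without any 1 of the 4 libraries (log2 0.32 to 0.43, highest adjusted p = 0.211). With 15 min of Dex after MS023, 0 of 10 genes were called by edgeR or DESeq2 against MS023 alone (2 at an unadjusted p below 0.05, 2.07% of all genes called), and after GSK591 0 of 10 (1, 2.09%).

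The cyclins of P-TEFb had no call against untreated cells in edgeR. CCNT1 stayed between 8.20 and 15.4 CPM, with its lowest library in GSK591 then Dex for 15 min (8.20 and 11.7, against 13.7 and 12.7 untreated, log2 -0.38, SE 0.16, edgeR adjusted p = 0.116). Without replicate 2 of that group the change was -0.68 (edgeR adjusted p = 0.0315). CCNT2 had 14.0 and 17.0 CPM in untreated cells and 11.2 and 11.7 after 2 days of GSK591, its lowest group (log2 -0.44, SE 0.16, edgeR adjusted p = 0.105). After 7 days of MS023 it had 15.8 and 20.6 CPM, and after a further 3 h of Dex 13.7 and 13.5. That fall of -0.42 (SE 0.14, edgeR adjusted p = 0.0491) was the 1 call among the 10 genes for Dex 3 h after MS023 (11.1% of all genes). It rested on MS023 7 days replicate 2, without which it was -0.21 (edgeR adjusted p = 0.607). It was also lost without replicate 1 or 2 of MS023 then Dex 3 h (-0.42 and -0.41, 0.182 and 0.197), in DESeq2 (0.179) and in 4 other settings.

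NELFB, a core subunit of NELF, showed the widest spread among groups of the NELF genes, 2.03-fold from the lowest to the highest group mean. It had 20.1 and 20.3 CPM in untreated cells and 29.1 and 29.2 after 2 days of MS023 (log2 0.53, SE 0.14, edgeR adjusted p = 0.00815). By 4 days of MS023 it was at 17.8 and 23.7 CPM, a fall of -0.49 from 2 days (SE 0.13, edgeR adjusted p = 0.0205). After GSK591 then Dex for 15 min NELFB was at 14.1 and 14.7 CPM, its lowest group (log2 -0.48, SE 0.15, edgeR adjusted p = 0.0205). This was the 1 lower call of the set against untreated cells (1 of 10 genes, 15.5% of all genes).

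The NELFB calls depended on the full set of libraries. The rise at 2 days kept its size (log2 0.53 each time) but had an edgeR adjusted p of 0.0555 to 0.0714 when any 1 of the 4 libraries was left out. The fall after GSK591 then Dex kept its direction (-0.52 to -0.46) with adjusted p up to 0.104, and was lost in DESeq2 (0.107), with total-count scaling (0.280) and with those groups fitted alone (0.0601). The fall from 2 to 4 days was -0.30 without MS023 4 days replicate 1 (edgeR adjusted p = 0.410), and was lost without MS023 2 days replicate 1 or 2 (-0.49 each, 0.135 and 0.116), in DESeq2 (0.0783) and with total-count scaling (0.549). The libraries of the 3 groups with 7 days of GSK591 lay between 14.1 and 17.6 CPM, all below untreated. Of these, GSK591 alone and GSK591 then Dex for 3 h (15.3 and 17.0 CPM, log2 -0.32, edgeR adjusted p = 0.101) did not pass.

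NELFCD, another core subunit of NELF, responded to Dex after GSK591. It had 12.0 and 11.7 CPM after 7 days of GSK591, 11.2 and 13.3 after a further 15 min of Dex and 18.2 and 18.5 after 3 h. The 3 h libraries lay above all 4 of the others. Against GSK591 alone the rise was 1.55-fold (log2 0.63, SE 0.15, edgeR adjusted p = 0.00250), and it held in every alternative run and without each library in turn. With HEXIM1, 2 of 10 genes were called in that comparison (9.85% of all genes). Against 15 min the rise was 0.57 (SE 0.15, edgeR adjusted p = 0.00486), lost without replicate 1 of GSK591 then Dex 15 min (log2 0.46, 0.0702), with total-count scaling (0.0661) and with those groups fitted alone (0.0636). Without inhibitor, NELFCD had 13.8 and 15.8 CPM in untreated cells and 15.5 and 17.2 after 3 h of Dex, groups that overlap. The GSK591 by Dex interaction at 3 h was 0.49 (SE 0.21) and did not pass (edgeR adjusted p = 0.440), so the response was not shown to differ from that of cells without inhibitor. The authors' deposited tables do not hold this rise: there the log2 change of NELFCD against untreated was -0.16 after GSK591 and -0.24 after GSK591 then Dex for 3 h (adjusted p = 0.494 and 0.263).

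NELFA, the subunit that contacts the polymerase, had 24.8 and 22.0 CPM in untreated cells and 28.3 and 29.5 after 3 h of Dex, above both untreated libraries (log2 0.31, SE 0.14, edgeR adjusted p = 0.152). In GSK591 then Dex it went from 20.8 and 15.8 CPM at 15 min to 25.8 and 26.0 at 3 h (log2 0.52, SE 0.14, edgeR adjusted p = 0.00835). Without replicate 2 of the 15 min group, its lowest library, the rise was 0.32 (edgeR adjusted p = 0.305), and with those groups fitted alone the adjusted p was 0.0730. The 15 min level against untreated was -0.37 (SE 0.14, edgeR adjusted p = 0.0685). It passed without replicate 1 of GSK591 then Dex 15 min (-0.57, 0.0186) and without both libraries of Dex with MS023 (-0.37, 0.0415).

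NELFE, the RNA-binding subunit, had 34 to 88 counts per library and no call. Its log2 fold change was below 0 in all 14 comparisons with untreated cells, from -0.48 after 7 days of MS023 (SE 0.22, edgeR adjusted p = 0.158) to nearly 0 after 4 days of GSK591. These share 1 high untreated library, replicate 1, with 7.67 CPM against 5.44 in replicate 2, and the highest of the 28 treated libraries had 6.63 CPM. With total-count scaling the change after MS023 then Dex for 3 h was 0.78 where TMM gave -0.23. The median of all genes with that scaling was 1.00, so NELFE still lay below it.

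**Figure D4:**
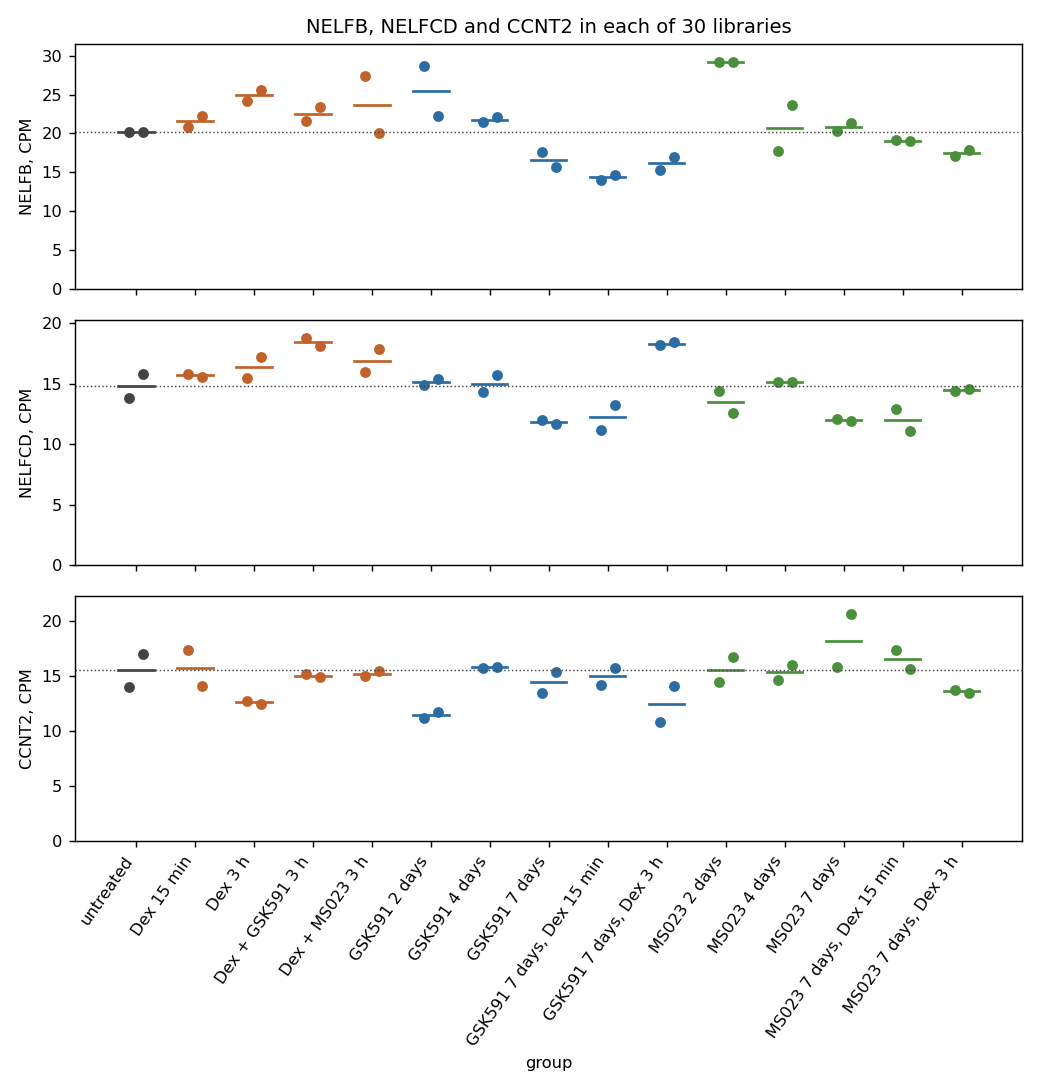
NELFB, NELFCD and CCNT2 in each of the 30 libraries, as TMM-scaled CPM from 0, by group (points are libraries, bars group means, dotted lines the untreated means). NELFB is highest after 2 days of MS023 (29.1 and 29.2), and NELFCD rises from GSK591 alone (12.0 and 11.7) to GSK591 then Dex for 3 h (18.2 and 18.5).

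SUPT5H, the large DSIF subunit that stays with the polymerase during elongation, had 60.7 and 50.4 CPM in untreated cells. Its highest group was GSK591 then Dex for 15 min, with 61.2 and 71.3 CPM, and at 3 h it had 45.7 and 49.4 there. The fall of -0.48 from 15 min to 3 h (SE 0.15, edgeR adjusted p = 0.0354) ran opposite to HEXIM1, NELFA and NELFCD in the same libraries. It was lost with total-count scaling (adjusted p = 0.382) and without 3 of the 4 libraries, namely replicate 2 at 15 min (log2 -0.36, edgeR adjusted p = 0.312) and replicate 1 or 2 at 3 h (-0.43 and -0.54, 0.213 and 0.0947). The lowest group was MS023 then Dex for 15 min, with 42.3 and 41.3 CPM, both below untreated (log2 -0.41, SE 0.15, edgeR adjusted p = 0.0669). That comparison passed without both libraries of Dex with MS023 (-0.41, 0.00507), with those groups alone (-0.39, 0.00313) and with no filter on low counts (-0.43, 0.00757). At 4 days, SUPT5H with GSK591 (60.9 and 63.2 CPM) lay above MS023 (47.8 and 50.3 CPM) by 0.34 (SE 0.15, edgeR adjusted p = 0.224). This passed with those groups alone (0.34, 0.0143) and without Dex with MS023 (0.34, 0.0392).

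The authors also deposited 14 tables of their own comparisons with untreated cells, made from another counting. Their mean normalised count was 446 for HEXIM1, whose median here was 1036 counts, but 286 for CCNT2 and 262 for CCNT1, whose medians here were 153.5 and 133. There 22 of 140 pairs had an adjusted p below 0.05, 12 higher and 10 lower. Of all genes with an adjusted p, the authors' deposited tables called 3.93% for Dex at 15 min, 21.9% for Dex at 3 h, 21.7% and 19.8% for Dex with GSK591 and with MS023, 14.7%, 26.8% and 23.8% for GSK591 at 2, 4 and 7 days, and 17.7%, 22.5% and 22.0% for MS023 at those times. For GSK591 then Dex they called 23.5% at 15 min and 34.2% at 3 h, and for MS023 then Dex 24.4% and 30.0%. Of the 9 pairs called from the counts, 8 were called in the same direction there. HEXIM1 was called in 10 of the authors' deposited tables. It was higher in 9, which are all 7 comparisons called from the counts, Dex with MS023 (log2 0.42, adjusted p = 0.00650) and MS023 at 4 days (0.52, 4.01e-04). It was lower in that of Dex for 15 min (log2 -0.52, SE 0.16, adjusted p = 0.00287). In the authors' deposited tables the HEXIM1 change was 0.72 at 3 h of Dex (adjusted p = 4.54e-07), 0.94 after 2 days of GSK591, 1.26 after 2 days of MS023 and 1.11 after MS023 then Dex for 3 h, each larger than from the counts. It is not stated whether the authors' changes were shrunken towards 0. Their sizes and standard errors may therefore not compare directly with those from the counts.

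For the other genes the authors' deposited tables and the counts differed more. NELFB was not called after 2 days of MS023 in the authors' deposited table (log2 0.05, adjusted p = 0.795). It was lower in the authors' deposited tables of all 3 groups with 7 days of GSK591, by -0.36 alone, -0.55 with Dex for 15 min and -0.38 with Dex for 3 h. CCNT2 was lower in the same 3 tables, by -0.40, -0.32 and -0.46. In the authors' deposited tables LARP7 was lower after 4 days of MS023 (-0.57), GSK591 then Dex for 3 h (-0.65) and MS023 then Dex for 3 h (-0.57), and SUPT5H was higher after 4 days of GSK591 (0.45), 2 days of MS023 (0.27) and GSK591 then Dex for 15 min (0.31). CDK9, CCNT1, NELFA, NELFCD and NELFE were called in none of the authors' deposited tables.

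**Figure D5:**
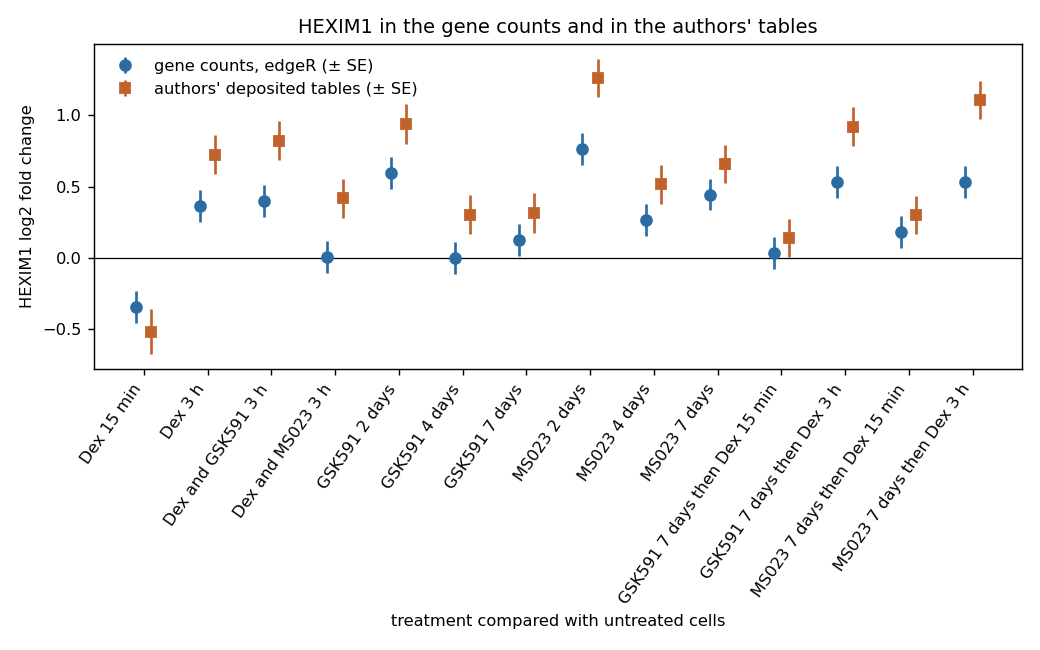
HEXIM1 log2 fold change against untreated cells in 14 treatments, from the gene counts with edgeR (circles) and in the authors' deposited tables (squares), each with its standard error. Both sources place Dex for 15 min below 0 (-0.35 and -0.52) and 2 days of MS023 highest (0.76 and 1.26). Sizes and standard errors may not compare directly between the sources.

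The wider machinery was described with 59 related genes in 8 lists, of which 57 passed the filter. After Dex for 3 h 5 of 57 were called, 3 higher and 2 lower (8.77%, against 10.5% of all genes), with a median log2 change of -0.13 against -0.01 over all genes. MEPCE, which caps 7SK RNA, was higher (48.6 and 54.7 CPM untreated, 63.5 and 70.1 after Dex, log2 0.37, edgeR adjusted p = 0.0305). INTS6 of Integrator was higher (0.47, 0.00141) while INTS7 was lower (-0.68, 0.0117). The polymerase subunit gene POLR2H was higher (0.41, 0.0379), and CDK12, an elongation kinase, was lower (-0.33, 0.0395). None of the 9 genes of the super elongation complex, which brings P-TEFb to polymerase, or of the 6 PAF1 complex genes was called by edgeR there.

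After 7 days of GSK591 9 of the 57 were called, 2 higher and 7 lower (15.8%, against 13.2% of all genes). SSRP1, a subunit of the histone chaperone FACT, went from 43.3 and 40.2 CPM to 21.5 and 19.2 (log2 -1.03, SE 0.19, edgeR adjusted p = 5.71e-04). INTS7 (-1.17) and INTS14 (-0.43) of Integrator were lower, as were EAF1 (-0.86) and the polymerase subunit genes POLR2D (-0.65), POLR2A (-0.52) and POLR2L (-0.46). CDK7, the TFIIH kinase (0.79), and ELL3 (0.75) were higher. After 7 days of MS023 5 of 57 were called, 2 higher and 3 lower (8.77%, against 13.6% of all genes). SSRP1 (-0.77), PAF1 (-0.61) and POLR2A (-0.48) were lower, and MLLT3 (0.68) and CDK7 (0.59) were higher. The median log2 change of the 57 was -0.26 with GSK591 and -0.22 with MS023, against -0.00 and 0.01 over all genes, and both comparisons share the untreated libraries.

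Across the 15 group means of log2 CPM the 10 genes did not move as a block. Of their 45 pairwise Pearson correlations 21 were above 0, with a median of -0.02 and a range from -0.49 (CCNT1 with SUPT5H) to 0.78 (CCNT1 with NELFB). NELFA with NELFCD (0.76) and HEXIM1 with CDK9 (0.72) were the next highest. The group means share 1 scaling across libraries, and the values are descriptions. Among 7075 genes that averaged 10 CPM or more, the patterns most like that of HEXIM1 over the 15 groups were those of AP003119.3 (Pearson r 0.858), CORO1B (0.852) and CTSA (0.843). For NELFB they were 2 copies of RF01518 (0.933 and 0.930) and RNU1-1 (0.931), small RNA genes with near-identical copies whose counts are uncertain.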

How the data were processed

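The 10 genes and the related lists were chosen with earlier results of these data known. Whole-number counts per gene for 30 PRO-seq libraries were deposited by the authors, made with featureCounts 2.0.1 on hg38 per the submitters' processing notes. The aligner, feature type and strand setting are not given in the sources used here. The authors' deposited comparison tables hold DESeq2 values per the file headers: log2 fold changes with their standard errors, p-values with adjusted p-values, and a mean signal per gene, the mean of normalised counts.

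Groups followed the labels. Counts were tested with the edgeR 4.0.16 quasi-likelihood test (R 4.3.3, TMM scaling, robust, filterByExpr with minimum count 10 and total 15). A single model of group means, without covariates, was fitted to all 30 libraries (residual degrees of freedom 15). Each of 27 comparisons, and of 7 between times that were added after the data had been seen, had its own Benjamini-Hochberg adjustment, and calls are at adjusted p below 0.05. Shares of all genes are shares called at that level. None is given for an unadjusted p below 0.05, so counts at that level have no background beside them. CPM are TMM-scaled. Lengths, coordinates and gene types come from GENCODE 29, which matched all 58780 gene IDs, and promoter windows from RefSeq. Named related genes are up to 3 called genes per list with the largest change and a mean of at least 5 CPM, in Dex 3 h and in 7 days of each inhibitor. Similar genes are the 3 with the highest correlation over groups, given for HEXIM1 and NELFB; those of NELFCD are not reported here. The test was checked on simulated counts. Alternatives were other scalings, no filter, no mitochondrial or ribosomal RNA genes, DESeq2 1.42.0, the groups compared alone, a replicate block, and each library left out.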

Additional observations from a re-analysis of the deposited data

How the results depend on the processing

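Of 270 planned gene-by-comparison values, 12 were called in the analysis as reported. With total counts as scaling 61 were called, and the median of all genes moved by up to 1.02 (log2, MS023 7 days against untreated, where 0.01 was the value with TMM). The number of calls was then 0 in place of 1 for Dex against untreated, 4 in place of 1 for Dex with an acute inhibitor, 2 in place of 1 for GSK591 alone, 23 in place of 3 for MS023 alone, 19 in place of 3 for an inhibitor then Dex, 11 in place of 0 for GSK591 against MS023 and 5 in place of 10 between times. Of 22919 genes, this scaling called 261 and 1259 for Dex at 15 min and 3 h, and 2060 and 4910 for Dex with GSK591 and MS023. It called 984, 4631 and 1135 for GSK591 at 2, 4 and 7 days, and 9228, 11285 and 16196 for MS023. For an inhibitor then Dex at 15 min and 3 h it called 1504 and 3820 with GSK591, and 13435 and 15427 with MS023. For GSK591 against MS023 at 2, 4 and 7 days it called 1108, 1358 and 16029. None is given between times. The 20 signs reversed with total counts as scaling were, against untreated, 0.72 for CCNT2 and 0.58 for SUPT5H with MS023 at 4 days, and 1.01 for LARP7, 0.88 for NELFA, 0.71 for NELFCD and 0.86 for SUPT5H at 7 days. With MS023 then Dex for 15 min they were 0.75 for CDK9, 0.68 for NELFA, 0.79 for NELFB and 0.57 for NELFCD. With MS023 then Dex for 3 h they were 0.93 for CCNT1, 0.81 for CCNT2, 0.87 for NELFA, 0.80 for NELFB, 0.97 for NELFCD, 0.78 for NELFE and 0.75 for SUPT5H. For GSK591 against MS023 at 7 days they were -0.94 for NELFA, -0.91 for NELFE and -0.81 for SUPT5H. The medians of all genes in those comparisons, in the same order, were 0.74, 1.02, 0.87, 1.00 and -1.07. No other setting reversed a called sign.

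DESeq2 called 9 of the 270, with 0 in place of 1 for Dex against untreated. Over all genes DESeq2 called 212 for Dex at 15 min and 1522 at 3 h. For GSK591 against MS023, no filter gave 1 call, the groups alone 2 and leaving out both libraries of Dex with MS023, an alternative chosen after seeing the data, 2 in place of 0. Over all genes at 2, 4 and 7 days, no filter called 592, 1247 and 1986, in place of 617, 1382 and 2149. The groups alone called 1065, 2458 and 3033, and leaving out Dex with MS023 called 800, 1718 and 2611. Leaving out Dex with MS023 also gave 5 in place of 3 for an inhibitor then Dex. Over all genes that fit called 4070 and 6786 for GSK591 then Dex at 15 min and 3 h, in place of 3558 and 6136. For MS023 then Dex it called 4682 and 5615, in place of 3942 and 5023. Beyond these and the settings named beside each gene, the causes were not tested.

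Leaving out each library in turn kept 1211 of 1240 planned values on the same side of the threshold. The number of calls ran from 0 to 1 for Dex against untreated, 0 to 1 for Dex with an acute inhibitor, 1 to 1 for GSK591 alone, 1 to 3 for MS023 alone, 2 to 3 for an inhibitor then Dex, 2 to 3 for Dex after an inhibitor, 0 to 4 for an acute inhibitor with Dex against Dex, 0 to 1 for GSK591 against MS023, 0 to 0 for interactions and 8 to 10 between times. Where 1 library of a group was left, it was assumed to vary like the other groups. The shares of all genes called in these refits are not given, so the counts have no background beside them.

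With the replicate number as a replicate block, 12 of 270 values were called, the same calls as without it. Deviations of same-numbered libraries were correlated by -0.45 to 0.49 over 105 pairs of groups (median 0.02, 22 above 0.1), so the numbers were not taken as pairing the libraries.

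With 2 libraries a group and 27 to 96 counts, LARP7 and NELFE changes as large as -0.71 and -0.48 did not pass the test at this depth. The untreated group is labelled 15 min, so time in culture cannot be told apart from days of inhibitor.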
